A study of Mus musculus with 3 samples.

Results

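KD4 is one of the stable Usp17l knockdown lines of E3 mouse embryonic stem cells (ESCs), and it was compared here with E3 ESCs that carry the empty vector. The comparison takes 2 of the 3 labelled samples of the knockdown RNA-seq, and every gene of the table was considered in it. The third sample, the knockdown line KD9, served for values side by side. USP17L enzymes are deubiquitinases, which remove ubiquitin from other proteins. Their genes are switched on at the 2-cell stage of the mouse embryo, together with Zscan4 and other genes of that stage, and a few cells of an ESC culture enter such a state from time to time. The question of the comparison is what an ESC line with less Usp17l RNA expressed.

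E3 ESCs came from blastocysts of a C57BL/6 × 129S6 cross and were grown with serum and LIF, a cytokine that keeps ESCs undifferentiated, on a layer of mouse embryonic fibroblast (MEF) feeder cells. Control cells received the empty vector and knockdown cells a plasmid with a short hairpin RNA against sequence common to the Usp17l genes. KD4 grew from 1 picked clone, and no source used here says which hairpin it carries. Control, KD4 and KD9 were labelled as passage 7 and as normally cultured. Values are TPM, the share of each transcript among all transcripts of a column, a level that takes transcript length into account. KD4 is 1 labelled sample with 2 columns, here called KD4_1 and KD4_2, so the gap between these columns is the only error the data give for it. Of the control columns, the 1 that matches a labelled sample was used. Differences from it therefore have no replicate check, and genes are described by their size and by the agreement of both KD4 columns, with no p-value. The depth of the libraries is unknown, since TPM keeps none. Fold changes are differences of log2(TPM + 0.1), and for low genes this scale gives too small a change.

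The targeted genes were low in both KD4 columns. Usp17le, at chr7:104768049-104777470 (mm10), had 1.82 TPM in the control, 0.151 in KD4_1 and 0.0637 in KD4_2, and 0.353 in KD9. Usp17lb, at chr7:104840257-104842603, was at 1.12 in the control, 0.128 in KD4_1, 0.325 in KD4_2 and 0.33 in KD9. The level of Usp17lb in KD4_2 was close to that in KD9, and Usp17le was lower in each KD4 column than in KD9. Usp17la, Usp17lc and Usp17ld had a mean TPM under 0.5 and were lower than the control in both KD4 columns. All 5 genes share long stretches of sequence, and reads that fit several of them were not counted, so the split between the members is uncertain.

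Genes of the 2-cell-like state were lower too, from low levels. Zscan4 genes encode zinc finger proteins of that state and lie in tandem copies of similar sequence, so their split by uniquely mapped reads is uncertain as well. All 6 were more than 2-fold lower in both KD4 columns, against 7.61% of all genes above 0.5 TPM. Their median log2 fold change was -3.03 (KD9, -2.14). It was -1.98 with a pseudocount of 0.5 and -1.41 with 1, and these genes too passed the limit of 0.5 TPM mainly through the control. Zscan4d had 3.39 TPM in the control, 0.265 in KD4_1, 0.279 in KD4_2 and 0.803 in KD9. Zscan4c was at 1.88 in the control, 0.396 in KD4_1, 0.278 in KD4_2 and 0.478 in KD9. Zscan4b was at 1.62 in the control, was listed at 0 in KD4_1 and was at 0.0703 in KD4_2. These genes had their highest level in the control, without exception. Of 26 other genes of the state, 11 were measured (mean TPM of at least 0.5), of which 8 were lower in both columns and 1 was higher. Several of them passed that limit through their level in the control, so the count is a description only. The median log2 fold change of the 11 was -2.46, and it was -1.57 with the low members kept. Tcstv3 was at 1.63 in the control, 0.257 in KD4_1, 0.163 in KD4_2 and 0.39 in KD9. Sp110 was at 1.8, 0.0887, 0.112 and 1.05 in the same order, so in KD9 it stayed within 2-fold of the control. Pramef12, the member that was higher, was at 3.18 in the control, 7.59 in KD4_1, 8.17 in KD4_2 and 7.03 in KD9. Duxf3, a copy of the Dux gene that activates this program, had a mean TPM under 0.5 and was at 0.506 in the control, 0 in KD4_1 and 0.0939 in KD4_2. None of 19 genes known to regulate Dux passed a 2-fold difference in both columns. Of all genes 7.61% were lower and 2.98% higher, so this says little. Among these 19 genes Dppa4 was at 114 in the control, 195 in KD4_1 and 201 in KD4_2, and Dppa2 at 78.3, 119 and 121.

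Across the whole table, KD4 held more lower than higher genes. Of the 12949 genes that averaged 5 TPM or more over the 3 samples, 635 (4.9%) were more than 2-fold lower in both KD4 columns and 189 (1.46%) more than 2-fold higher, a ratio of 3.36. Among these genes the imbalance was larger for larger differences. More than 4-fold lower were 207 genes against 28 higher, and more than 8-fold lower 65 against 6. The median log2 fold change of the 12949 genes was 0.00, on values that are scaled to one sum per column. With the wider limit of 0.5 TPM, which takes in 19950 genes, 1518 (7.61%) were lower and 595 (2.98%) higher in both columns. More than 4-fold these were 530 and 164, and more than 8-fold 249 and 97, so there the imbalance did not keep growing. KD9 against the same control gave 177 lower and 151 higher genes above 5 TPM.

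The columns of KD4 agreed well for the genes above 5 TPM and poorly for low and short ones. Their log2 values had a Pearson r of 0.978 over the 12949 genes, which are not independent replicates, and 294 of these genes (2.27%) differed more than 2-fold between the columns. Between 0.5 and 5 TPM the share was 17.6%. It was 36.9% for miRNA genes and 49.2% for snRNA genes above 0.5 TPM, and 1.57% for protein-coding genes. Among protein-coding genes above 5 TPM it was 6.32% for the 253 whose longest annotated transcript is under 750 bases, and 0.0448% for the 4463 of 3000 to 6000 bases. The short ones stood higher in KD4_2, with a median log2 difference of 0.15 between the columns. Rps29, which encodes a small ribosomal protein, had 700 TPM in the control, 778 in KD4_1 and 2277 in KD4_2. Atp5k, a small subunit of ATP synthase, was at 79.4, 81 and 179 in the same order. Neither gene can be called different in KD4.

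**Figure D1:**
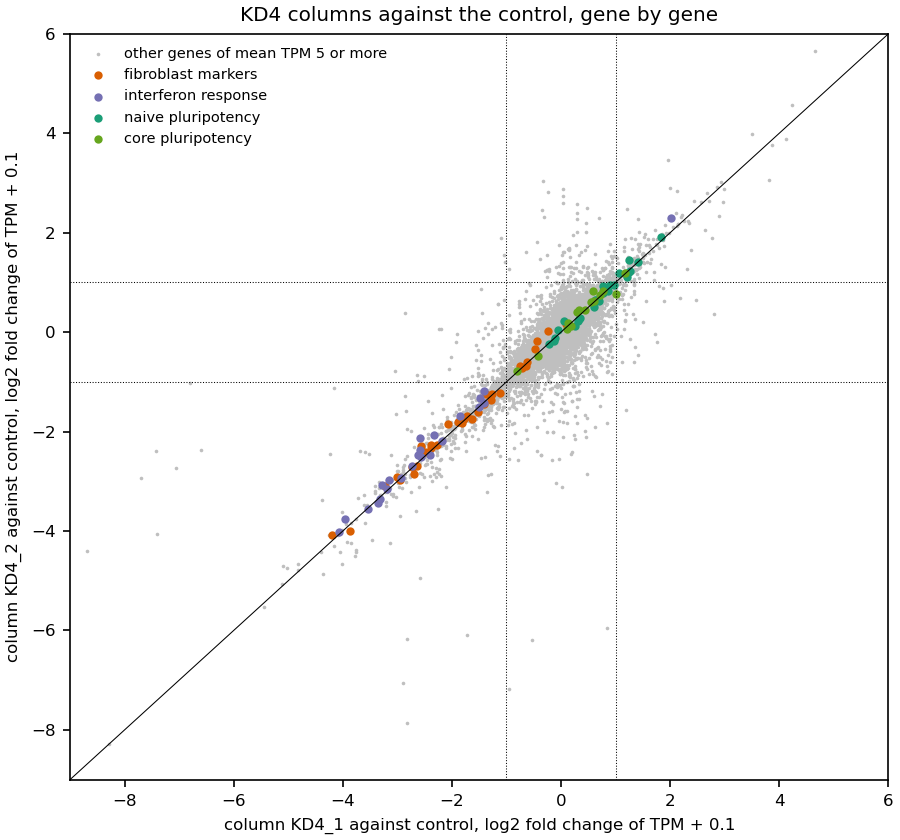
Each point is a gene of mean TPM 5 or more, with its log2 fold change against the control in column KD4_1 on the x axis and in KD4_2 on the y axis. Dotted lines mark 2-fold differences. Most interferon response genes and fibroblast markers lie at the lower left, near the diagonal, Ifitm1 lies at the upper right, and naive pluripotency genes lie mostly above 0 on both axes.

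Interferon-stimulated genes were lower almost throughout. Interferons are cytokines released upon viral infection. They act through receptors of the cell on transcription factors that bind a short element in the promoters of antiviral genes. Of 23 measured genes of this list, 22 were more than 2-fold lower in both KD4 columns, against 7.61% of all genes. The other 1 was higher, and the median log2 fold change of the list was -2.54 (KD9, -0.30). The summed level of the list was 6418 TPM in the control, 1675 in KD4_1, 1773 in KD4_2 and 6400 in KD9. The list was chosen with earlier results of these data known, so its count is a description.

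Among the sensors and transcription factors of the response, Stat2 had 48.9 TPM in the control, 13.5 in KD4_1, 15 in KD4_2 and 41.5 in KD9. Irf7, the factor that amplifies interferon production, was at 73.3 in the control, 7.22 in KD4_1, 7.11 in KD4_2 and 65.3 in KD9. Both KD4 columns lay far below the control and KD9 for these factors. The RNA sensors followed, with Ifih1 (MDA5) at 16.1 in the control, 2.03 in KD4_1 and 2.02 in KD4_2. Ddx58 (RIG-I) differed less, at 59.4, 22.4 and 22.1.

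Most antiviral effectors of the list were lower too. Ifit3 and Ifit1 encode related antiviral proteins, of which IFIT1 binds foreign RNA and blocks its translation. Ifit3 was at 231 in the control, 14.8 in KD4_1, 17 in KD4_2 and 238 in KD9, a log2 fold change of -3.86 in KD4. Ifit1 was at 232, 20, 19.6 and 136. Rsad2, which encodes viperin, was at 39.9 in the control, 2.27 in KD4_1, 2.37 in KD4_2 and 15 in KD9. Ifit3b, a close copy of Ifit3, had the largest negative log2 fold change of the genes named here (-5.49), at 148 in the control, 3.31 in KD4_1, 3.1 in KD4_2 and 61 in KD9. Isg15, a ubiquitin-like protein that is attached to others during the response, was at 772 in the control, 125 in KD4_1, 139 in KD4_2 and 689 in KD9. Usp18, the protease that takes ISG15 off again, was at 191, 21.3, 24.2 and 96.1. Bst2 (tetherin), which holds budding virus at the cell surface, was at 1173 in the control, 198 in KD4_1, 205 in KD4_2 and 809 in KD9. In none of these genes did a KD4 column reach the control or KD9.

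Some genes of antigen presentation were lower as well. B2m, the light chain of class I MHC, had 1615 TPM in the control, 572 in KD4_1, 565 in KD4_2 and 2219 in KD9. H2-K1, a class I heavy chain, was at 172, 41.7, 41 and 207. Psmb8, a subunit of the immunoproteasome, was at 17.3 in the control, 2.79 in KD4_1, 3.9 in KD4_2 and 18.2 in KD9. Counted by symbol, all 9 measured Gbp genes, which encode interferon-induced GTPases, were lower in both columns (median log2 fold change -3.32). So were all 7 Oas genes (-2.88) and 14 of 16 Ifi genes (-2.33), against 7.61% of all genes. Other symbol groups with genes of the interferon list held a smaller share of lower genes. Lower were 6 of 12 Parp genes (-0.97), 2 of 7 Stat genes (-0.32) and 1 of 10 Irf genes (-0.12). Of 5 Ifitm genes 2 were lower and 1 was higher (-0.43). Symbol groups that hold antigen presentation genes among others were mixed. Lower were 11 of 23 H2- genes, with 1 higher (median -0.95), 3 of 11 Psmb genes (-0.06) and 2 of 5 Psme genes (-0.90). H2-K1 and these symbol families were picked after their values were seen.

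Ifitm1 went the other way from its neighbour Ifitm3, although both encode membrane proteins that restrict the entry of viruses. Ifitm1 had 18.7 TPM in the control, 76.1 in KD4_1, 92.2 in KD4_2 and 33.8 in KD9. Ifitm3 was at 1429 in the control, 512 in KD4_1, 569 in KD4_2 and 1609 in KD9. Ifitm1 was the 1 member of the list that was higher, with a log2 fold change of 2.16.

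The promoters of 3 of the lower genes are shown because they carry the element of the interferon response. The letters GAAANNGAAA (N, any base) were searched on both strands from 250 bases before to 50 bases after the start of each gene, in RefSeq promoters on GRCm38.p6. Capitals mark the matches, which in Isg15 are 3 that overlap. They lie at chr19:34583279-34583578 (plus strand), chr4:156200769-156201068 (minus strand) and chr5:92348840-92349139 (minus strand).
Ifit3: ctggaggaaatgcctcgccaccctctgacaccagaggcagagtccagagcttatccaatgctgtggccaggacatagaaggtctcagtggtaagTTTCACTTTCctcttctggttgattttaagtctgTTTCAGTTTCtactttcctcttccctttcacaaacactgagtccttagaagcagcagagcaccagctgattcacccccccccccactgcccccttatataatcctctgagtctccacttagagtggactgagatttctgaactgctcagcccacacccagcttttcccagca
Isg15: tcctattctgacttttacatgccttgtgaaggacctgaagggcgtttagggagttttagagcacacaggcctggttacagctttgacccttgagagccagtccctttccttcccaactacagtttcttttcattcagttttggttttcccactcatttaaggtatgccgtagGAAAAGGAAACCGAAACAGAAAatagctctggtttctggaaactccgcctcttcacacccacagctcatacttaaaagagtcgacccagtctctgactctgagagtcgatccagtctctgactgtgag
Cxcl10: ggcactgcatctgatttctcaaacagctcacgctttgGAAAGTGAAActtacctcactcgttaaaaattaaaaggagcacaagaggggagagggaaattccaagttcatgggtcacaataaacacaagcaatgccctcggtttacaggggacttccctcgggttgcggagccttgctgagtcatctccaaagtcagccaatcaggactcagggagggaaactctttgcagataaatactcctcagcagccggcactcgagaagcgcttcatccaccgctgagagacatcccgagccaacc

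The same letters were in 1079 of 27025 promoters of the table (3.99%) and in 312 of the 8493 that belong to genes above 5 TPM (3.67%). Of the 635 lower genes 356 had a promoter, and 56 of these (15.7%) held the letters. Of the 189 higher genes 97 had one, and 2 (2.06%) held them. In the interferon list they were in 11 of 19 promoters, those of Ifit1, Ifit3, Isg15, Oas1a, Rsad2, Stat2, Bst2, Ifitm3, Ddx58, Ifih1 and B2m, and in the fibroblast list in 1 of 19. A match describes letters and shows no binding.

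Fibroblast genes formed the other large lower group. The 34 markers encode collagens, matrix proteins and factors of mesenchymal cells. Of them 26 were more than 2-fold lower in both KD4 columns, against 7.61% of all genes. The markers had a median log2 fold change of -1.79 (KD9, -0.13). Their summed level was 11290 TPM in the control, 5272 in KD4_1, 5539 in KD4_2 and 10672 in KD9, and no marker was at 0 in KD4. In a bulk sample, fewer cells of a type and less RNA per cell cannot be told apart. The feeder layer is made of fibroblasts, and no source used here gives the number of feeder cells in a sample. Fibroblast markers and interferon genes were low in the same 2 columns, and the part of the fibroblast level in the interferon result was not tested.

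The fibroblast markers did not share a common fold change. Col3a1, a fibrillar collagen, had 114 TPM in the control, 6.14 in KD4_1, 6.66 in KD4_2 and 127 in KD9. Col1a1, the main collagen of connective tissue, was at 1198, 182, 184 and 763. Postn, which encodes the matrix protein periostin, was at 110 in the control, 7.42 in KD4_1, 6.74 in KD4_2 and 72.4 in KD9. Twist2, a transcription factor of mesenchyme, was at 56.2, 6.88, 7.42 and 33.4. Its relative Twist1 was at 29.3 in the control, 24.8 in KD4_1, 29.6 in KD4_2 and 48.2 in KD9. Sfrp1, a secreted Wnt inhibitor, was at 35 in the control, 37.4 in KD4_1 and 39.2 in KD4_2. Vim (vimentin) was at 671, 410 and 406, and Lgals1 (galectin 1) at 1497, 1104 and 1320. Markers thus ranged from a log2 fold change of -4.14 for Col3a1 to 0.13 for Sfrp1. Of 33 measured genes with a Col symbol, 21 were lower in both columns, against 7.61% of all genes. This symbol family is not one of the chosen lists, so its count is a description.

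Genes that remodel the matrix and contract the cell were lower with them. Of 19 proteases and inhibitors 11 were lower in both columns, against 7.61% of all genes (list median -1.42 in KD4, 0.00 in KD9). Mmp9, a gelatinase, had 234 TPM in the control, 14.3 in KD4_1, 14.8 in KD4_2 and 83.8 in KD9. Mmp3 (stromelysin 1) was at 38.9, 3.45 and 2.04, and at 102 in KD9. Timp2, an inhibitor of these enzymes, was at 228, 220 and 225, and Mmp11 at 344, 396 and 325. Of 15 contractile genes 8 were lower in both columns (median -1.05 in KD4, -0.55 in KD9). Tagln (transgelin) was at 1042 in the control, 407 in KD4_1 and 428 in KD4_2, and Acta2 (smooth muscle actin) at 1268, 661 and 680. Among matricellular genes Thbs1 was at 1360, 263 and 259, and Thbs2 at 235, 15.1 and 16.1. The summed fibroblast markers were lower in the same columns, and their part in these counts was not tested.

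Chemokines and cytokines split in the same way. Of 17 measured genes 12 were lower in both columns, against 7.61% of all genes, and the list median was -1.75 (KD9, 0.19). Cxcl10, an interferon-induced attractant of T cells, had 253 TPM in the control, 8.86 in KD4_1, 9.9 in KD4_2 and 49.5 in KD9. It lies on the other strand within Art3, which was at 16.5, 0.688 and 0.676, and reads of overlapping genes are hard to separate. Ccl2, an attractant of monocytes, was at 759 in the control, 245 in KD4_1, 260 in KD4_2 and 869 in KD9. Il6 was at 26.7, 4.58 and 5.01, and at 57.9 in KD9. Ccl8 was listed at 0 in both KD4 columns and was at 1.91 in the control. Lif was at 55.4, 37.3 and 35.8, and at 128 in KD9. Cxcl5 was at 11 in the control, 14.7 in KD4_1, 16 in KD4_2 and 129 in KD9.

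**Figure D2:**
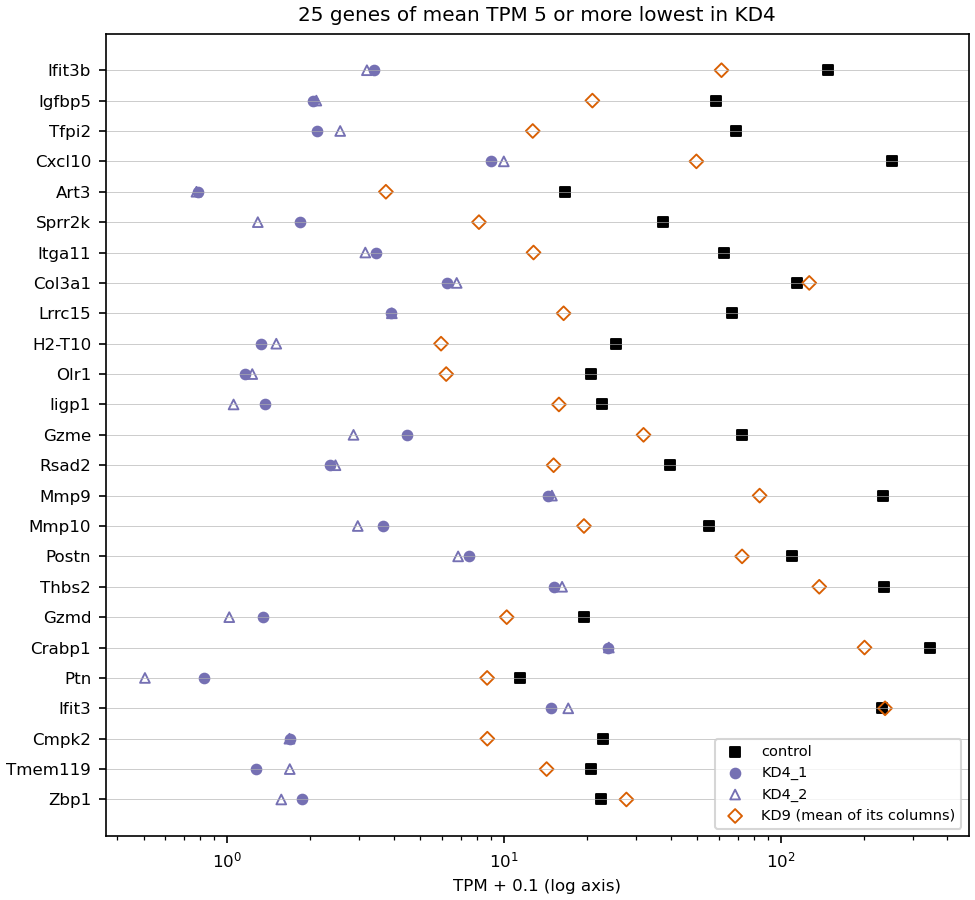
TPM + 0.1 on a log axis for the 25 genes of mean TPM at least 5 with the lowest fold change in the KD4 column nearer to the control, ordered from the top. Squares are the control, filled circles KD4_1, triangles KD4_2 and diamonds the mean of the KD9 columns. The KD4 columns lie close together and below the control and KD9 in each row, and KD9 lies at or above the control for Col3a1, Ifit3 and Zbp1.

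The 25 genes with the largest differences on the lower side included members of these groups. Beside Ifit3b, Ifit3, Rsad2, Cxcl10, Col3a1, Postn, Mmp9, Mmp10, Thbs2 and Art3 they were Igfbp5, Tfpi2, Sprr2k, Itga11, Lrrc15, H2-T10, Olr1, Iigp1, Gzme, Gzmd, Crabp1, Ptn, Cmpk2, Tmem119 and Zbp1. Igfbp5, which binds insulin-like growth factors, had 58.2 TPM in the control, 1.95 in KD4_1, 2 in KD4_2 and 20.8 in KD9. Crabp1, a retinoic acid binding protein, was at 344, 23.7, 23.8 and 201. Gzme, a granzyme protease, was at 72.5 in the control, 4.38 in KD4_1, 2.77 in KD4_2 and 31.9 in KD9. H2-T10 overlaps other annotated genes.

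Genes induced within minutes by growth factors or stress were lower in part. Of 14 immediate early genes 8 were lower in both columns, against 7.61% of all genes (list median -1.10 in KD4, 0.01 in KD9). Fos had 384 TPM in the control, 177 in KD4_1, 176 in KD4_2 and 405 in KD9. Egr2 was at 13.9, 2.06, 2.72 and 7.7, and Jun at 179, 62.1, 61.5 and 187. Myc, at 60 in the control, 65.7 in KD4_1 and 70.1 in KD4_2, and Ier2, at 305, 309 and 283, stayed within 2-fold. Btg2 and Fas were the only 2 of 18 p53 targets lower in both columns (11.1%), Btg2 at 130, 33.5 and 33.8. The share was 7.61% over all genes and 4.9% over those above 5 TPM, where all 18 lay, so 2 genes say little. Cdkn1a, the cell cycle inhibitor of that pathway, was at 202, 105 and 104, and Trp53 itself at 210, 310 and 309.

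Markers of the primitive endoderm, the lineage that lines the yolk sac, were mostly lower. Of 18 measured genes 12 were lower in both columns, against 7.61% of all genes, and 1 was higher. The list median was -1.56 (KD9, -1.26). Some of the lower members, such as Sparc and the collagens Col4a1 and Col4a2, are also made by fibroblasts. Sparc had 1173 TPM in the control, 206 in KD4_1, 226 in KD4_2 and 669 in KD9. Sox7 was at 6.18 in the control, 2 in KD4_1 and 1.88 in KD4_2, and Sox17 at 1.37, 0.336 and 0.319. Gata4 was at 12, 5.83 and 6.46. Gata6, a master factor of the lineage, was at 4.24, 2.09 and 2.28, also not past 2-fold in both columns. Lrp2, an endocytic receptor, was at 22.7, 9.15 and 8.71, and at 4.06 in KD9. Apoe, a lipid carrier, was the higher member, at 463 in the control, 1129 in KD4_1, 1225 in KD4_2 and 794 in KD9.

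Naive pluripotency genes stood on the other side. They encode the transcription factors and markers of the undifferentiated state of the early epiblast. Of 25 such genes 7 were more than 2-fold higher in both KD4 columns, against 2.98% of all genes, while none was lower. Of the 25, 22 had a positive log2 fold change, and the median was 0.65 (KD9, 0.37). Nr0b1 (DAX1), a nuclear receptor, had 124 TPM in the control, 442 in KD4_1, 470 in KD4_2 and 238 in KD9. Zfp42 (REX1), a marker of the naive state, was at 221, 530, 519 and 387. Dppa3 (STELLA), which protects methylation in the zygote, was at 17.2 in the control, 45.8 in KD4_1, 45.6 in KD4_2 and 34.3 in KD9. Prdm14, a repressor that keeps the naive state, was at 6.58, 15.8, 18 and 16.9. Tcl1, Tdh and Fgf4 were the other members above 2-fold. Nanog was at 222 in the control and 347 in each KD4 column, with 336 in KD9, and Esrrb at 131, 243, 252 and 192. Klf4, at 366, 354 and 379, and Stat3, at 43, 39.6 and 39.4, differed little.

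Most core factors differed from the control by less than 2-fold. Of 16 genes 1, Mybl2, was more than 2-fold higher in both columns, against 2.98% of all genes. The median log2 fold change of the 16 was 0.42 (KD9, -0.14). Mybl2, a regulator of the cell cycle, had 287 TPM in the control, 645 in KD4_1, 653 in KD4_2 and 408 in KD9. Pou5f1 (OCT4), without which ESCs lose their state, was at 698, 1025, 1060 and 689. Sox2, its partner on DNA, was at 296 in the control, 446 in KD4_1, 525 in KD4_2 and 334 in KD9. Lin28a, an RNA-binding protein that blocks let-7 miRNAs, went the other way, at 267, 152, 154 and 111, and so did its relative Lin28b, at 8.96, 6.69, 6.43 and 4.76. The summed level of the core list was 3361 TPM in the control, 4851 in KD4_1, 4956 in KD4_2 and 3139 in KD9. TPM sums to 1000000 in every column, and the fibroblast markers were lower in the same columns. Their part in the higher ESC genes was not tested.

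**Figure D3:**
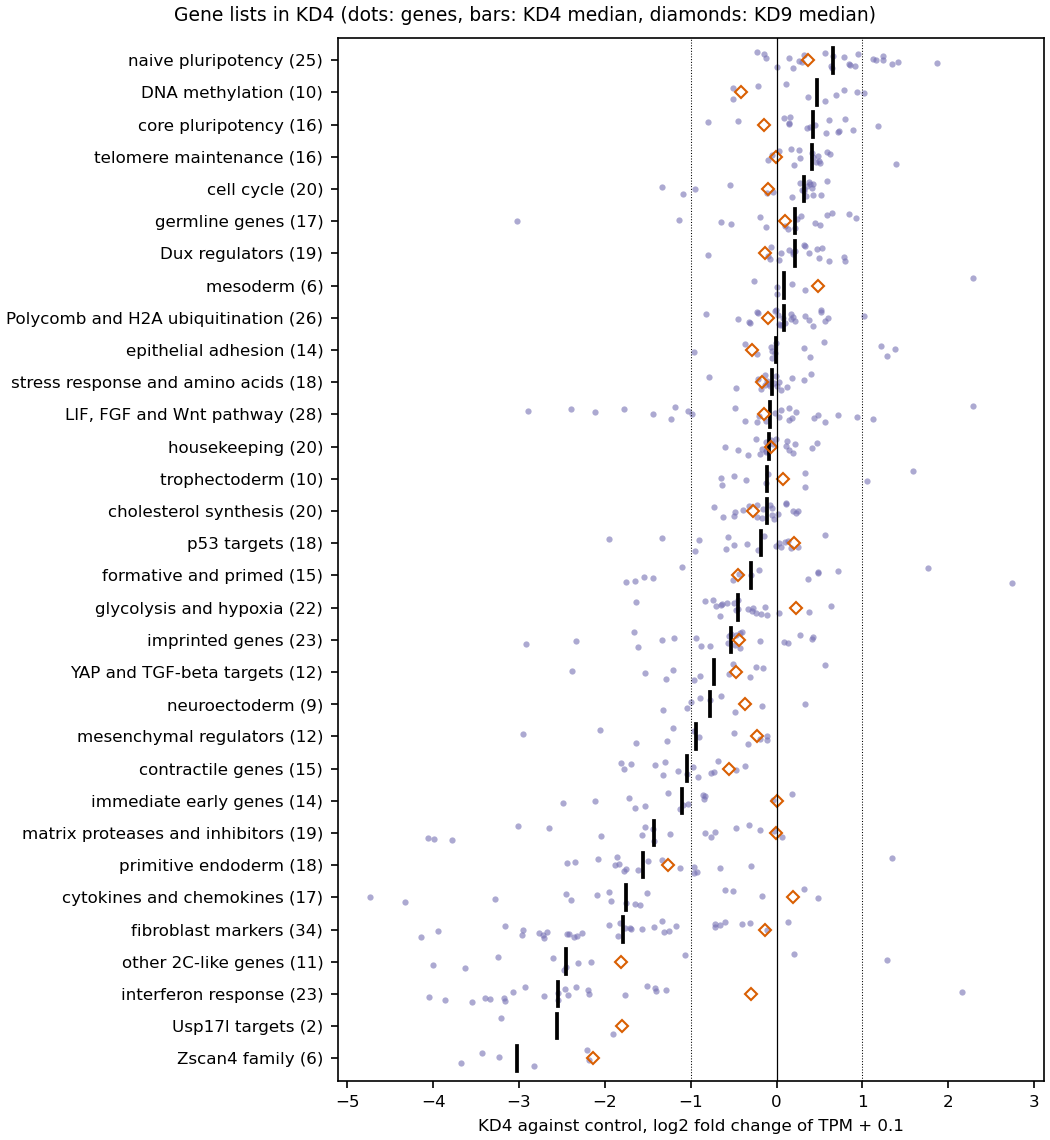
Log2 fold change of KD4 (mean of its columns) against the control for the measured members of the 32 gene lists, with the number of members in parentheses. Dots are genes, black bars the KD4 median and open diamonds the KD9 median. The medians run from -3.03 for the Zscan4 family to 0.65 for naive pluripotency, and the KD9 medians of the fibroblast, interferon, chemokine and protease lists lie between -0.30 and 0.19.

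Genes of the step after the naive state went both ways. Of 15 formative and primed genes 5 were lower and 2 higher in both columns, against 7.61% and 2.98% of all genes. Pou3f1 (OCT6) had 17.4 TPM in the control, 5.16 in KD4_1, 5.79 in KD4_2 and 5.3 in KD9, and Fgf5 at 1.48, 0.481, 0.253 and 0.212. Otx2, a factor that acts early in this transition, was at 1.59 in the control, 10.8 in KD4_1, 11.6 in KD4_2 and 2.97 in KD9. Foxd3, a repressor that ESCs need, was at 8.14, 27.8, 27.8 and 19.4. Otx2 overlaps a noncoding gene on the other strand. Pou3f1 and Otx2 thus lay on opposite sides of the control within the same columns.

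Signalling genes split within pathways. Of 28 genes of the LIF, FGF, Wnt and TGF-beta-related list 7 were lower and 2 higher in both columns. Over all genes these shares were 7.61% and 2.98%. Lefty1, a secreted inhibitor of NODAL, had 471 TPM in the control, 82 in KD4_1, 96.2 in KD4_2 and 67.3 in KD9, and Lefty2 at 120, 34, 36.3 and 31.1. Nodal itself was at 61.3, 58.4 and 68.7. The Wnt targets Cdx1 and Sp5 were lower, with Cdx1 at 13.6 in the control, 1.09 in KD4_1 and 2.39 in KD4_2 and at 11.1 in KD9. Bmp4, a ligand that induces ID proteins, was at 7.72 in the control, 36 in KD4_1, 40.1 in KD4_2 and 19.7 in KD9. It overlaps the protein-coding gene Gm15217 on the other strand. Id3 was at 162 in the control, 69.7 in KD4_1 and 72.9 in KD4_2. Fgf4, the main FGF ligand of ESCs, was at 66.1, 138 and 150. Socs3, a target of LIF signalling, was at 72.7, 75.6 and 84.9.

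Single genes with large differences on the higher side were fewer. Nkx6-3, a homeobox gene, had 1.09 TPM in the control, 17.2 in KD4_1, 16 in KD4_2 and 7.87 in KD9, a log2 fold change of 3.81. Wnt7b, a Wnt ligand, was at 1.75, 14.6, 13.5 and 6.33. Rhox6, a homeobox gene of the X-linked Rhox cluster, was at 2.61 in the control, 17.7 in KD4_1, 16.8 in KD4_2 and 5.63 in KD9. Of 7 measured Rhox genes 5 were higher in both columns, against 2.98% of all genes, a family picked after its values were seen. Sox15, a relative of Sox2, was at 6.91, 33.4, 32.7 and 20.1. Eras, a Ras gene of ESCs that promotes their growth, was at 12 in the control, 55.4 in KD4_1, 60.6 in KD4_2 and 22.1 in KD9. Hmces, which protects abasic sites in DNA, was at 57.1, 237, 249 and 120. In each of these genes KD9 lay between the control and KD4.

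Of the 25 highest genes by the same rule, 6 were miRNA genes whose annotated transcripts are under 100 bases long, a class in which the KD4 columns often differed. Mir93, within Mcm7, had 2.22 TPM in the control, 17.1 in KD4_1 and 11.5 in KD4_2, while Mcm7 had a log2 fold change of 0.61. Mir7649 was listed at 0 in the control and was at 1.79 and 2.26 in KD4. Mir6960, Mir3078, Mir718 and Mir6942 were the others. A library of polyadenylated RNA does not measure mature miRNAs. Further genes of the 25 were AC154540.2, Krt42, Slc17a9, Klf15, Ly6g6e, Ly6g6d, Cd37 and Enox1 beside Otx2, Bmp4, Ifitm1 and Nr0b1 and the genes above. Ly6g6e and Ly6g6d overlap each other. Of the 25 genes, 11 overlap an annotated protein-coding gene, among them Bmp4, Eras, Sox15 and Cd37, and reads of overlapping genes are hard to separate.

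**Figure D4:**
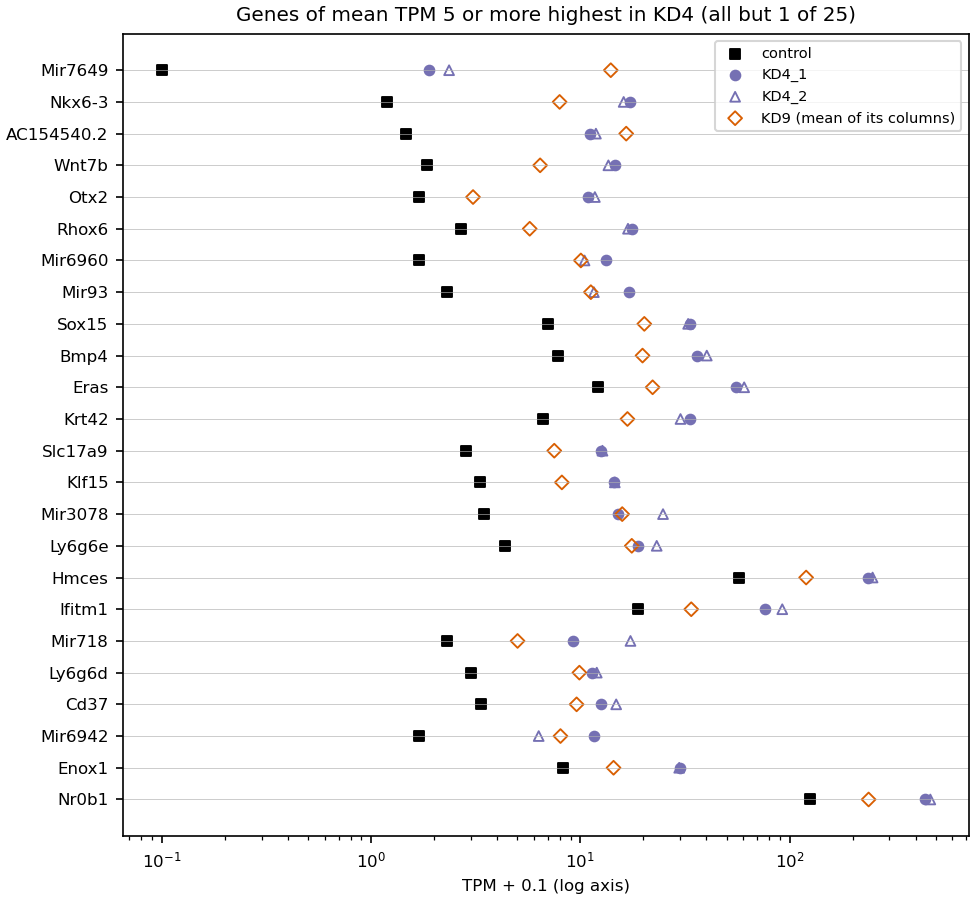
TPM + 0.1 on a log axis for all but 1 of the 25 genes of mean TPM at least 5 with the highest fold change in the KD4 column nearer to the control, with the symbols of the plot of lower genes. KD9 lies between the control and KD4 for most genes, and above both for Mir7649 and AC154540.2.

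In several lists no gene passed 2-fold in both columns. Over all genes 7.61% were lower and 2.98% higher in both columns, so none passing in such short lists says little. None of 26 Polycomb and H2A ubiquitination genes passed in both columns (median 0.09). Rnf2, the ubiquitin ligase of histone H2A, had 75.9 TPM in the control, 79.3 in KD4_1 and 78.8 in KD4_2, and Jarid2, a partner of the complex, was the highest of the list at 85.3, 168 and 178. None of 10 DNA methylation genes passed, and the median was 0.47 (KD9, -0.41). Uhrf1, which guides the maintenance methylase, was at 107 in the control, 214 in KD4_1, 219 in KD4_2 and 113 in KD9. None of 16 telomere genes (median 0.41), 20 cholesterol synthesis genes (-0.12), 18 stress and amino acid genes (-0.05) or 20 housekeeping genes (-0.08) passed either. Terc, the RNA template of telomerase and a short transcript, was at 0.922 in the control, 0.948 in KD4_1 and 4.19 in KD4_2, so its columns disagree. Cdh1, the cadherin that joins ESCs, was at 160, 158 and 150, whereas Grhl2, Cldn4 and Tjp3 were the 3 of 14 epithelial genes that were higher. Of 22 glycolysis and hypoxia genes P4ha1, which modifies collagen, was the 1 that was lower, at 79.7, 26.1 and 25.1.

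Among the imprinted genes 6 of 23 were lower in both columns and none was higher (median -0.53 in KD4, -0.44 in KD9). Dlk1, a paternally expressed inhibitor of differentiation, had 22.9 TPM in the control and 2.96 in each KD4 column, with 8.03 in KD9. Igf2, a growth factor, was at 172, 52.5, 59.5 and 178. Meg3, from the other allele of the Dlk1 domain, was at 82.1, 46.1 and 49.9, and Snrpn at 132, 174 and 177. Stra8, the gene that starts meiosis, and Rec8 were the 2 of 17 germline genes lower in both columns, Stra8 at 87 in the control, 10.1 in KD4_1, 11 in KD4_2 and 15.9 in KD9. That share is near the 7.61% of all genes, and 11 of the 17 had a positive log2 fold change (median 0.21).

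Few genes of the remaining lineage lists passed 2-fold in both columns. Among them 1 of 9 neuroectoderm genes was lower (Sox1, with 11.3 TPM in the control, 4.06 in KD4_1 and 4.85 in KD4_2), 2 of 10 trophectoderm genes were higher (Tfap2c and Ascl2) and, of 6 mesoderm genes, Bmp4 was higher. Over all genes 7.61% were lower and 2.98% higher in both columns. The mesoderm markers T and Mixl1 had a mean TPM under 0.5 and were not counted, though both were more than 2-fold lower in both columns. T was at 0.758 in the control, 0.0866 in KD4_1 and 0.109 in KD4_2, and Mixl1 at 0.722, 0.306 and 0.11. Mesp1, Evx1 and Kdr, also under that limit, did not pass 2-fold in both columns. The neuroectoderm median was -0.78, with 8 of the 9 below 0. Lower in both columns were 5 of 12 mesenchymal regulators (median -0.94) and 4 of 12 YAP and TGF-beta targets (-0.72). Of 20 cell cycle genes, all above 5 TPM, 2 were lower (10%), against 4.9% of all genes above 5 TPM, and so few say little. Of these 20 genes 14 had a positive log2 fold change, and the median was 0.32. Ptprc, which marks blood cells, was at 0.016 in the control, 0.0109 in KD4_1 and 0.00692 in KD4_2, and Cdh5, which marks endothelium, at 0.278, 0.143 and 0.0904. Cd68, a lysosomal gene of macrophages, was at 19.5, 26.1 and 30.1. Adgre1, a macrophage marker, was at 0.452, 0.495 and 0.117.

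A direct comparison of KD4 with KD9 leaves the control out of the fold change. The control still entered the mean TPM by which the genes were chosen. Every KD4 column was more than 2-fold below every KD9 column for 525 of the 12949 genes (4.05%) and above for 37 (0.286%). By this rule 22 of the 23 interferon genes, 26 of 34 fibroblast markers, 10 of 13 chemokines and cytokines and 8 of 13 immediate early genes above 5 TPM were lower in KD4, and Ifitm1 was higher. None of the 25 naive and none of the 16 core pluripotency genes passed in either direction, with median log2 differences of 0.29 and 0.58. Lum, a proteoglycan of fibroblasts, had 2.07 TPM in the control, 0.287 in KD4_1, 0.31 in KD4_2, 13.4 in KD9_1 and 12.2 in KD9_2. H2-T23 was at 22.3 in the control, 2.39 and 2.46 in KD4 and 32.2 and 30.9 in KD9. Enpp3 was at 15.6 in the control, 36 and 34 in KD4 and 11 and 10.7 in KD9. H2-T23 and Enpp3 were picked after their values were seen. Each line has 1 labelled sample, so these differences between KD4 and KD9 were not tested.

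The lower genes were spread over the genome. The median log2 fold change of the genes above 5 TPM ran from -0.07 on chromosome 14 to 0.09 on chromosome 17 among the autosomes, a range of 0.155, and was -0.03 on the X chromosome. The share of genes lower in both columns was 8.1% on chromosome 1 and 2.54% on chromosome 4, the highest and the lowest of the autosomes.

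**Figure D5:**
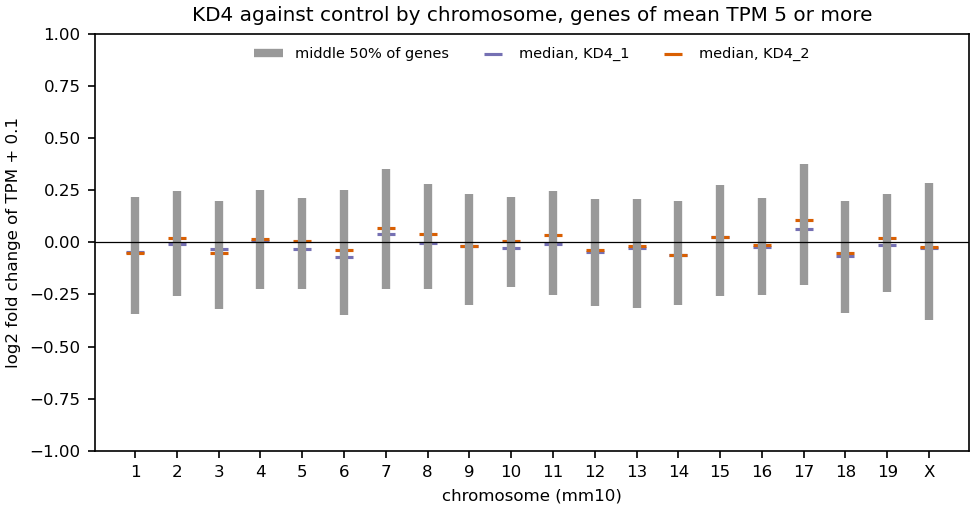
Log2 fold change of KD4 against the control for genes of mean TPM at least 5 by chromosome. Grey bars span the middle 50% of the genes for the mean of the KD4 columns, and ticks are the medians of KD4_1 and KD4_2. The medians of the autosomes and the X chromosome, which are those shown, lie near 0, and chromosome 17 has the highest of them.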

How the data were processed

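RNA-seq was done on E3 mouse ESCs for 1 labelled control, KD4 and KD9 sample each. The authors sequenced polyadenylated RNA. They used Trim Galore for trimming, HISAT2 for alignment to mm10 and featureCounts for the counts of uniquely mapped reads, which they turned into the deposited TPM values, and neither the methods nor the submitters' processing notes give versions. Reads that map to several similar genes were therefore not counted, and reads of overlapping genes are hard to separate. The table holds 32545 rows and 5 columns that were used, and each column sums to 1000000. 1 further per-sample column, which is named as a control but matches no labelled sample, was left out. Some of its values were seen at the first look at the file, and it entered no result. The legends of the study treat both columns of a line as biological replicates, but the labels give 1 sample, so they count as 1 replicate here. 24 row names had become dates and matched no symbol.

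Genes were compared as log2(TPM + 0.1) where the mean TPM over control, KD4 and KD9 was 0.5 or more, with attention to those of 5 or more. A gene was counted as higher or lower where both KD4 columns were more than 2-fold to the same side of the control. No count model or p-value was used, since TPM is not a count and a group holds 1 labelled sample. Members and the 32 gene lists (551 genes) were chosen with earlier results of these data known. Named genes are list members, including those with the highest and lowest fold changes and those that define a list, and the 25 higher and 25 lower genes of mean TPM 5 or more with the largest fold change in the KD4 column nearer to the control, leaving out Gm-number, Riken and pseudogene-like symbols. They also include the genes whose KD4 columns differ most, of which protein-coding ones are given. Some genes that the rule names are not reported here. The text states where a gene was picked after its values were seen. Chromosomes and gene models come from GENCODE M21 on the same build, matched by symbol, and promoters from RefSeq. Other pseudocounts, filters, thresholds, single columns and a rescaling by median ratios were tried as alternatives. Python 3.11.15, numpy 2.4.6, pandas 2.3.3 and matplotlib 3.10.9 were used.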

Additional observations from a re-analysis of the deposited data

Results flagged for a closer look

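For 5 named genes, both KD4 columns were more than 2-fold below the control while both KD9 columns were more than 2-fold above it. The log2 fold change in KD4 minus that in KD9 was -4.04 for Dcn (decorin), -5.01 for Lum (lumican), -5.17 for Mmp3, -3.57 for Il6 and -2.65 for Tgfbi. Dcn had 16.6 TPM in the control, 2.47 in KD4_1, 2.21 in KD4_2, 39.7 in KD9_1 and 40.4 in KD9_2. Tgfbi had 3.54 TPM in the control, 1.62 in KD4_1, 1.34 in KD4_2 and 9.8 as the mean of KD9. All 5 genes are on lists of fibroblast, matrix, cytokine or mesenchymal genes, and the opposite sides were not tested, since each line has 1 labelled sample and both share the control.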

How the results depend on the processing

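Counts of genes depend on the thresholds, and the excess of lower over higher genes was present under every alternative run. By the mean of the KD4 columns, 1034 genes were higher and 1896 lower, and by both columns 595 and 1518. In the same order the counts were 549, 1206, 305 and 1019 with a pseudocount of 1, 2641, 3646, 1075 and 2946 when low genes were kept, and 292, 731, 189 and 635 for genes of mean TPM 5 or more. They were 2198, 3591, 1450 and 2850 for a fold over 1.5 and 451, 1001, 248 and 777 for a fold over 3. Without Riken, Gm-number and pseudogene-like symbols 440 and 289 genes were higher, and among protein-coding genes only, an alternative added after seeing the data, the counts were 351, 1162, 255 and 1003. Fewer genes enter these last sets by construction. The Zscan4 median was -1.41 with a pseudocount of 1 and -1.98 with 0.5, and the fibroblast median -1.70 and -1.73. The naive pluripotency median was 0.69 in KD4_1 alone. The median of the other 2-cell-like genes turned to 0.74 for genes of mean TPM 5 or more, where 2 genes were left. Of 194 further list medians 188 kept their sign, and the other 6 were within 2-fold. Rescaling by median ratios moved the median of all genes by 0.004 on the log2 scale. No paired analysis was possible because each group has 1 labelled sample. The depth is unknown, and every difference from the control rests on 1 column.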
